A study of Mus musculus with 12 samples.

Results

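The enzymes that write, remove or copy methyl and acetyl marks on histones and DNA were followed in the immortal mouse macrophage line J774A.1, which derives from a BALB/c tumour. They were taken by gene symbol, as every row of the deposited table named Kdm, Hdac, Kmt, Setd, Ezh, Dnmt, Tet, Uhrf, Kat or Sirt with a number or letter of that family. The rule gave 66 rows of the 11762 in the table, with 65 symbols, since Hdac4 has 2 rows. There were 15 Kdm, 11 Hdac, 11 Setd or Setdb, 7 Kat, 7 Sirt, 5 Kmt2, 4 Dnmt, 2 Ezh, 2 Tet and 2 Uhrf rows. No measured value was used to choose them, but the choice was made with earlier results of these data known.

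Polyadenylated RNA was sequenced from 4 groups of cells with 3 biological replicates each. LPS+MP cells were given lipopolysaccharide and microparticles, LPS cells lipopolysaccharide, MP cells microparticles, and control cells were mock-treated. Lipopolysaccharide is a bacterial cell wall component that macrophages sense with Toll-like receptor 4. The sources used here state neither what the microparticles are made of nor any dose or time of exposure, and all groups are of 1 immortal line, with no primary macrophages beside it.

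DNA methylation is laid down by Dnmt3a and Dnmt3b, copied after replication by Dnmt1 with its partner Uhrf1, and oxidised by the Tet enzymes. Histone marks are set by methyltransferases and acetyltransferases and taken off by demethylases and deacetylases. Ezh2 places the repressive mark H3K27me3 and Kdm6b removes it. In macrophages Kdm6b is known as an LPS-inducible gene, and Tet2 and several deacetylases are known as regulators of inflammatory genes.

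Values are CPM, a gene's reads divided by the library's reads and given on a common scale, and each level below is a CPM unless it is given per kb of transcript. A log2 fold change is on the scale of log2(CPM + 1) and stands with its SE. The words rose and fell are used where limma's adjusted p (Benjamini-Hochberg over 11745 genes) was under 0.05 and the change was over 2-fold; for other genes only values are given. All 66 rows passed the filter on low values. Depth per library is unknown, since the table holds no counts. In bulk RNA, fewer cells of a type and less RNA per cell cannot be told apart. Of 10 macrophage marker symbols (Adgre1 and Emr1 name the same gene) 9 were in the table, and they summed to between 5601 and 8334 CPM in every library. Against control 4 of these 9 rose in LPS cells (8.3% of all genes), 3 rose and 1 fell in LPS+MP cells (8.52% and 12.3%), and 1 rose in MP cells (1.82%). The sum therefore does not show that each marker was stable. Markers of T cells, neutrophils and dendritic cells had 1 gene each in the table, at under 9 CPM, and those of B cells and epithelial cells 0. Of 5 fibroblast markers 1 was in the table (Pdgfra, at 6.90 to 7.97 CPM in LPS+MP, 7.67 to 10.8 in LPS, 1.99 to 2.35 in MP and 1.00 to 1.64 in control libraries). It moved with LPS, and its part in the results was not tested. All 10 of the LPS response genes checked rose in LPS cells. LPS replicate 2 stood apart from its group. It deviated from the other LPS libraries by over 1 on the log2 scale in 339 genes, against 29 genes for LPS replicate 1 and 17 for LPS replicate 3. None of the enzymes deviated so far in it (0 of 66, beside 339 of the 11745 genes). Of the enzymes 5 deviated by over 0.5, a count not made over all genes. The deviations of LPS replicate 2 were lower at higher GC content, with a Spearman rho of -0.57 over 65 enzyme rows and -0.6 over 11638 genes. This is a description over genes that share the library. Without it, 16 log2 fold changes past both thresholds that rest on LPS cells moved by at most 0.15, and 1 of them (Kdm8) no longer passed.

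Promoter windows of 4 members are shown to set the letters beside the changes described next: Uhrf1 and Ezh2, which fell with LPS, and Kdm5b and Tet2, which rose. Each window runs from 250 bases before to 50 bases after a RefSeq start (GRCm38.p6), and where a gene had several the window nearest to the transcript start in the deposited table was taken (311 bases away in Ezh2, at most 16 in the other 3). Capitals mark the core of the E2F motif, the cell cycle factors' binding sequence, searched on both strands in the spellings TTCCCGC (found in Uhrf1), TTGGCGC (found in Ezh2), TTCGCGC (found in none of the 4) and TTGCCGC (found in Kdm5b). Uhrf1 lies at chr17:56303087-56303386 (plus strand), Ezh2 at chr6:47594981-47595280 (minus strand), Kdm5b at chr1:134559928-134560227 (plus strand) and Tet2 at chr3:133544341-133544640 (minus strand).
Uhrf1: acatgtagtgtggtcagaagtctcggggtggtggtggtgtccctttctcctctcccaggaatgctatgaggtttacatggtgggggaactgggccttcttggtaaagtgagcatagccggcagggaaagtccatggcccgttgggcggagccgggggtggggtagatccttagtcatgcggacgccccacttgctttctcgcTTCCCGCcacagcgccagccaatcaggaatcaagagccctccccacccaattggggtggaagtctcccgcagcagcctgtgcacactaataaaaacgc
Ezh2: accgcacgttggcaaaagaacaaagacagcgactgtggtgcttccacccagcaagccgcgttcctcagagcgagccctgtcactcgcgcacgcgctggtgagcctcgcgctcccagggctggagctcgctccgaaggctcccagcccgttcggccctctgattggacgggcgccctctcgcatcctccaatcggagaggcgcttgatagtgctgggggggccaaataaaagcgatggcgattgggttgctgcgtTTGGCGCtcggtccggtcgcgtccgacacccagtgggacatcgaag
Kdm5b: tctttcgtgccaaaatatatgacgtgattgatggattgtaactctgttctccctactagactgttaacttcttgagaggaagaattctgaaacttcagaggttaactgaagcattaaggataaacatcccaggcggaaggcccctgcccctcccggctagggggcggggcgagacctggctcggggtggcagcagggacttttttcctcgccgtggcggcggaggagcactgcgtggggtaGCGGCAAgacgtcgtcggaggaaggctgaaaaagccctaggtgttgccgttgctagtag
Tet2: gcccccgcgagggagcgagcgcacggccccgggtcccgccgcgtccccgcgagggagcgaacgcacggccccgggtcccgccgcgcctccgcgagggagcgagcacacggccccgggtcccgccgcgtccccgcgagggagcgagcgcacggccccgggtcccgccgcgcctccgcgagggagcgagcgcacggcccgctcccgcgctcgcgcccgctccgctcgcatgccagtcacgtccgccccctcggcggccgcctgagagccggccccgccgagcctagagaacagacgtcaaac
The core began at -48 from the start in Uhrf1 (TTCCCGC), at 5 in Ezh2 (TTGGCGC) and at -9 in Kdm5b, where GCGGCAA reads TTGCCGC on the other strand. The Tet2 window held none of these spellings. Of 32851 RefSeq windows 9.57% held the core, and of the 75 windows of 52 matched enzyme symbols 11 did (14.7%). The median count of CG dinucleotides was 22 in the enzyme windows and 7 in all windows, and every spelling of the core contains CG. The shares were not compared at equal CG content. RefSeq windows of Setd8, Hdac10, Hdac3, Kdm3b, Kdm4b, Kmt2e, Kdm2a, Kat6a, Setd1b, Kmt2b, Kdm5a, Kdm6b and Hdac1 were not analysed here. A match is a description of letters and not a binding site. Kdm5b, which rose, held it, as did Uhrf1 and Ezh2, which fell. Dnmt1, which also fell, held it in some of its windows. No window of Dnmt3a, Dnmt3b, Hdac7, Kdm2b or Kdm8, which fell too, held it. Some or all windows of Kat2a, Kdm3a, Sirt4, Sirt6 and Uhrf2 held it, and these neither rose nor fell in any group against another.

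In LPS+MP cells and in LPS cells 12 of the 66 rows each passed both thresholds against control. In LPS+MP against control, 3 rose (Tet2, Kdm6b, Kdm5b), where 8.52% of all genes rose, and 9 fell (Uhrf1, Dnmt1, Dnmt3a, Dnmt3b, Ezh2, Hdac7, Hdac10, Kdm2b, Kdm8), where 12.3% of all genes fell. In LPS against control the counts were also 3 and 9, against 8.3% and 8.05% of all genes. In MP against control 0 rose and 2 fell (Uhrf1, Hdac7), where 1.82% and 1.85% of all genes did. The 3 comparisons share their control libraries. LPS+MP against LPS gave 1 rise (Kdm6b; 0.63% of all genes) and 1 fall (Uhrf1; 3.89%), and LPS+MP against MP gave 3 rises (5.71%) and 5 falls (7.88%). In all, 12 rows passed in at least 1 of these 5 comparisons and 54 in none, a count not made over all genes. The median log2 fold change of the 66 rows was -0.16 in LPS+MP, -0.10 in LPS and -0.01 in MP cells against control. Over all genes it was -0.10 in LPS+MP, -0.08 in LPS and 0.02 in MP cells.

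At the adjusted p alone, without the fold threshold, many more rows differed by small amounts. In LPS+MP against control 16 were higher and 25 lower, where 27.7% and 38.6% of all genes were. In LPS against control 14 were higher and 27 lower, where 26.6% and 35.6% of all genes were. In MP against control 11 were higher and 14 lower, where 20.6% and 18.3% of all genes were; without LPS replicate 2, which enters only the shared spread, these were 17 and 21, and under median-ratio scaling 8 and 19. LPS+MP against LPS gave 9 higher and 11 lower (13% and 22.2% of all genes). These became 5 and 7 without LPS+MP replicate 1, 5 and 6 without LPS+MP replicate 2, 5 and 5 in a fit of the 2 compared groups alone, and 10 and 8 under quantile normalization. LPS+MP against MP gave 12 higher and 25 lower (19% and 36.6% of all genes). The median of all genes in LPS+MP against MP was -0.14 on the log2 scale, -0.01 under median-ratio scaling and -0.02 under quantile normalization, and the split of the enzymes became 18 and 18 under median-ratio scaling and 16 and 19 under quantile normalization. In 5 members (Uhrf1, Dnmt1, Dnmt3a, Ezh2, Kdm3b) the 4 groups lay in one order with no overlap, lowest in LPS+MP, then LPS, MP and control, an order held by 5.26% of all genes. In 3 members (Kdm6b, Kdm5b, Sirt6) the order ran the opposite way, as in 1.55% of all genes.

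**Figure D1:**
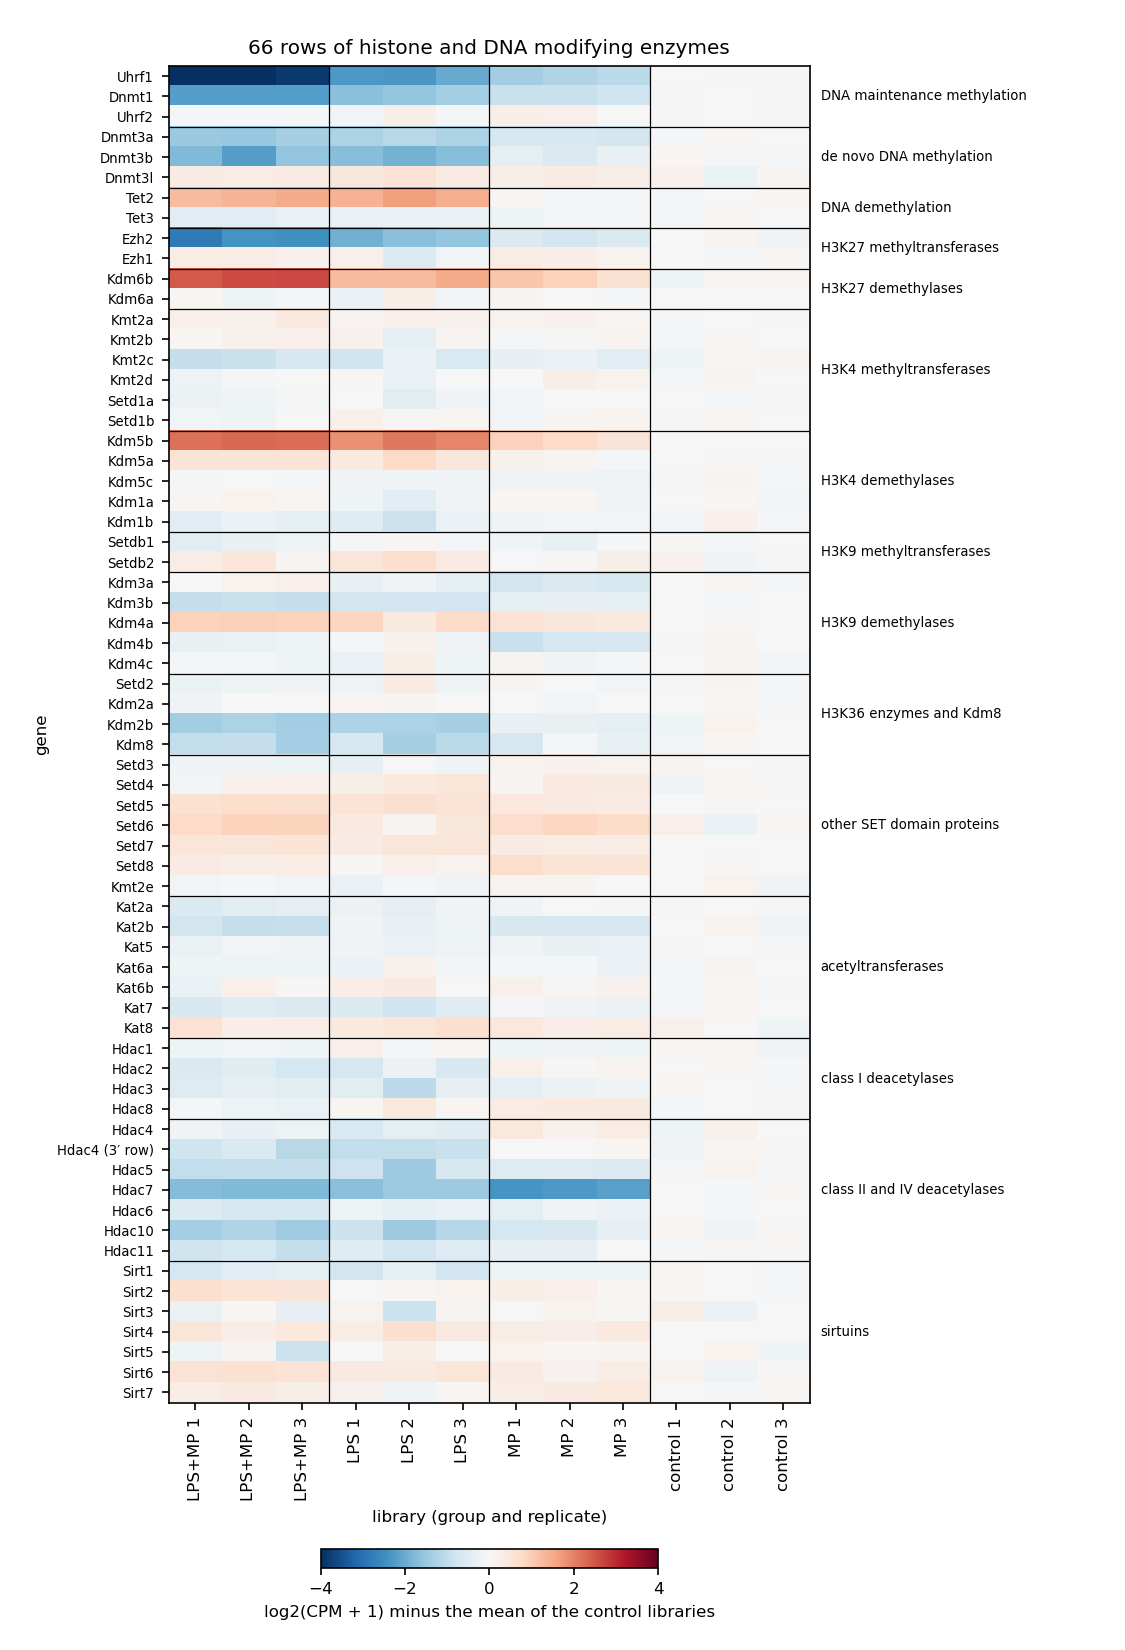
Each of the 66 rows is a gene, grouped by role, and each column a library; the colour is log2(CPM + 1) minus the mean of the 3 control libraries. Uhrf1 is the darkest blue in the LPS+MP columns (log2 fold change -3.96) and Kdm6b the darkest red (2.57), while most rows stay pale in all 12 libraries.

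Of the 2 Uhrf genes 1 changed. Uhrf1 (chr17:56303321-56323486, plus strand, in the table's coordinates, as for all genes below), which recognises hemimethylated DNA and brings Dnmt1 to it, was at 28.9, 29.5 and 33.9 CPM in LPS+MP cells, 99.1, 97.1 and 119.7 CPM in LPS cells, 187, 211 and 231 CPM in MP cells, and 486, 507 and 480.3 CPM in control cells. The groups did not overlap, and the LPS+MP libraries were far below all others. Uhrf1 fell 15.5-fold in LPS+MP cells against control (log2 fold change -3.96 ± 0.10, adjusted p = 1.38e-14) and 4.65-fold in LPS cells (-2.22 ± 0.10, adjusted p = 1.91e-11). It also fell in MP cells against control (-1.23 ± 0.10, adjusted p = 1.5e-07) and in LPS+MP cells against LPS cells (-1.74 ± 0.10, adjusted p = 3.32e-09), the 1 enzyme to do so in both settings of microparticle treatment. Its relative Uhrf2, on chr19, was at 80.9, 83.1 and 83.3 CPM in LPS+MP cells, 80.4, 101 and 81.8 CPM in LPS cells, 104, 98.2 and 87.1 CPM in MP cells, and 88.8, 86.6 and 82.8 CPM in control cells. Those ranges ran across each other, and its log2 fold change in LPS+MP cells was -0.06 ± 0.09 (adjusted p = 0.558). Per kb of transcript, the ratio of the Uhrf1 level to the Uhrf2 level was 0.352, 0.350 and 0.402 in LPS+MP cells, 1.22, 0.949 and 1.44 in LPS cells, 1.78, 2.12 and 2.61 in MP cells, and 5.40, 5.77 and 5.72 in control cells. Uhrf1 was thus the more abundant of the pair per length in control cells and the less abundant in LPS+MP cells.

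Dnmt1 (chr9:20907206-20959888, minus strand), the maintenance methyltransferase, was at 118, 117 and 117 CPM in LPS+MP cells, 171, 182 and 210.0 CPM in LPS cells, 293, 294 and 315 CPM in MP cells, and 524, 552 and 559.7 CPM in control cells. The 4 groups were again apart, with the LPS+MP libraries within 1 CPM of each other. Dnmt1 fell in LPS+MP cells against control (-2.20 ± 0.07, adjusted p = 5.76e-13), in LPS cells against control (-1.54 ± 0.07, adjusted p = 7.24e-11) and in LPS+MP cells against MP cells (-1.35 ± 0.07, adjusted p = 3.43e-10). In MP cells it was 1.81-fold lower than in control (-0.86 ± 0.07, adjusted p = 4.93e-07), short of the fold threshold. With an interaction of 0.19 ± 0.10 (adjusted p = 0.213), no difference between the microparticle effects with and without LPS was detected.

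The de novo methyltransferases were lower with LPS too. Dnmt3a (chr12:3806007-3914443, plus strand) was at 93.3, 92.8 and 104 CPM in LPS+MP cells, 111, 123 and 111 CPM in LPS cells, 162, 169.9 and 159.6 CPM in MP cells, and 255, 272 and 268 CPM in control cells. It fell in LPS+MP cells (-1.45 ± 0.07, adjusted p = 4.31e-11) and in LPS cells (-1.20 ± 0.07, adjusted p = 6.5e-10), and MP cells lay between LPS and control cells with no overlap. Dnmt3b (chr2:153649450-153687730, plus strand) was scarcer, at 3.59, 2.45 and 4.25 CPM in LPS+MP cells, 3.85, 3.27 and 3.83 CPM in LPS cells, 11.1, 9.67 and 11.8 CPM in MP cells, and 15.8, 14.4 and 14.2 CPM in control cells. LPS+MP and LPS libraries overlapped each other and lay below the rest. Dnmt3b fell in LPS+MP cells (-1.85 ± 0.15, adjusted p = 2.7e-08) and in LPS cells (-1.76 ± 0.15, adjusted p = 6.63e-08) against control. Per kb, control cells held Dnmt1 at 102, Dnmt3a at 27.4 and Dnmt3b at 3.42 CPM. Dnmt3l, a catalytically inactive partner of these enzymes, had group means of 11.2 ± 0.136 (LPS+MP), 12.3 ± 1.11 (LPS), 10.8 ± 0.352 (MP) and 8.86 ± 1.49 CPM (control; SD, n = 3 each). Its largest log2 fold change against control was 0.44 ± 0.12 (adjusted p = 0.00583) in LPS cells.

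On the side of DNA demethylation, Tet2 moved the other way. Tet2 (chr3:133463679-133544390, minus strand), which oxidises methylcytosine, was at 226, 239 and 262 CPM in LPS+MP cells, 242, 289.8 and 259 CPM in LPS cells, 97.0, 88.3 and 90.5 CPM in MP cells, and 87.2, 92.8 and 98.9 CPM in control cells. All 6 libraries with LPS were more than 2-fold above all 6 without it, and microparticles separated neither pair of groups. Tet2 rose in LPS+MP cells (1.37 ± 0.08, adjusted p = 5.65e-10) and in LPS cells (1.49 ± 0.08, adjusted p = 3.27e-10) against control, and in LPS+MP cells against MP cells (1.39 ± 0.08, adjusted p = 7.52e-10). The difference between LPS+MP and LPS cells was -0.12 ± 0.08 (adjusted p = 0.276) and that between MP and control cells -0.02 ± 0.08 (adjusted p = 0.904). Tet3 was at 101, 99.5 and 114 CPM in LPS+MP cells, 115, 113 and 117 CPM in LPS cells, 122, 130.1 and 130.0 CPM in MP cells, and 134, 144 and 136 CPM in control cells. Its log2 fold change in LPS+MP cells (-0.40 ± 0.07, adjusted p = 0.000113) was opposite in sign to that of Tet2.

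The H3K27 enzymes also split by direction. Ezh2 (chr6:47530274-47595341, minus strand), the catalytic subunit of Polycomb repressive complex 2, was at 13.1, 17.8 and 17.1 CPM in LPS+MP cells, 25.1, 30.5 and 33.2 CPM in LPS cells, 65.7, 59.2 and 65.7 CPM in MP cells, and 99.5, 107 and 90.3 CPM in control cells. The 4 groups did not overlap. Ezh2 fell in LPS+MP cells (-2.56 ± 0.12, adjusted p = 3.39e-11) and in LPS cells (-1.71 ± 0.12, adjusted p = 6.86e-09) against control, and in LPS+MP cells against MP cells (-1.94 ± 0.12, adjusted p = 1.64e-09). It was 1.8-fold lower in LPS+MP than in LPS cells (-0.85 ± 0.12, adjusted p = 6.72e-05). Its paralog Ezh1 was at 51.2, 51.3 and 46.5 CPM in LPS+MP cells, 47.1, 28.1 and 37.9 CPM in LPS cells, 50.3, 49.8 and 45.7 CPM in MP cells, and 41.2, 39.9 and 42.6 CPM in control cells. LPS replicate 2 held the lowest of those values, and Ezh1 had log2 fold changes against control of 0.26 ± 0.13 (adjusted p = 0.093) in LPS+MP cells and -0.16 ± 0.13 (adjusted p = 0.321) in LPS cells.

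Kdm6b (chr11:69398508-69413675, minus strand), the demethylase that removes H3K27 methylation, was at 115, 126 and 128 CPM in LPS+MP cells, 49.5, 48.8 and 58.0 CPM in LPS cells, 44.4, 38.3 and 30.8 CPM in MP cells, and 17.6, 21.2 and 21.2 CPM in control cells. Every LPS+MP library was about 2-fold or more above every LPS library, and the MP libraries lay between LPS and control. Kdm6b rose in LPS+MP cells against control (2.57 ± 0.12, adjusted p = 3.03e-11), against LPS cells (1.23 ± 0.12, adjusted p = 1.58e-06) and against MP cells (1.69 ± 0.12, adjusted p = 7.9e-09), and in LPS cells against control (1.34 ± 0.12, adjusted p = 1.16e-07). In MP cells the change was 1.83-fold (0.88 ± 0.12, adjusted p = 4.48e-05), and without MP replicate 3, the lowest of the group, it passed the fold threshold at 1.01. The interaction was 0.35 ± 0.17 (adjusted p = 0.153), so the microparticle effects with and without LPS were not shown to differ. Kdm6a, the X-linked relative of Kdm6b, was at 20.5, 17.0 and 18.2 CPM in LPS+MP cells, 16.4, 23.2 and 17.7 CPM in LPS cells, 20.8, 19.0 and 18.0 CPM in MP cells, and 19.4, 19.4 and 19.1 CPM in control cells, with no separation of the groups.

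Set against each other per kb, the Kdm6b level over the Ezh2 level was 3.67, 2.97 and 3.15 in LPS+MP cells, 0.827, 0.671 and 0.732 in LPS cells, 0.283, 0.271 and 0.196 in MP cells, and 0.0742, 0.0833 and 0.0984 in control cells. The 4 groups were apart in this ratio, and Kdm6b was the more abundant of the pair in LPS+MP libraries only. It is a ratio of transcripts, and histone marks were not measured.

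**Figure D2:**
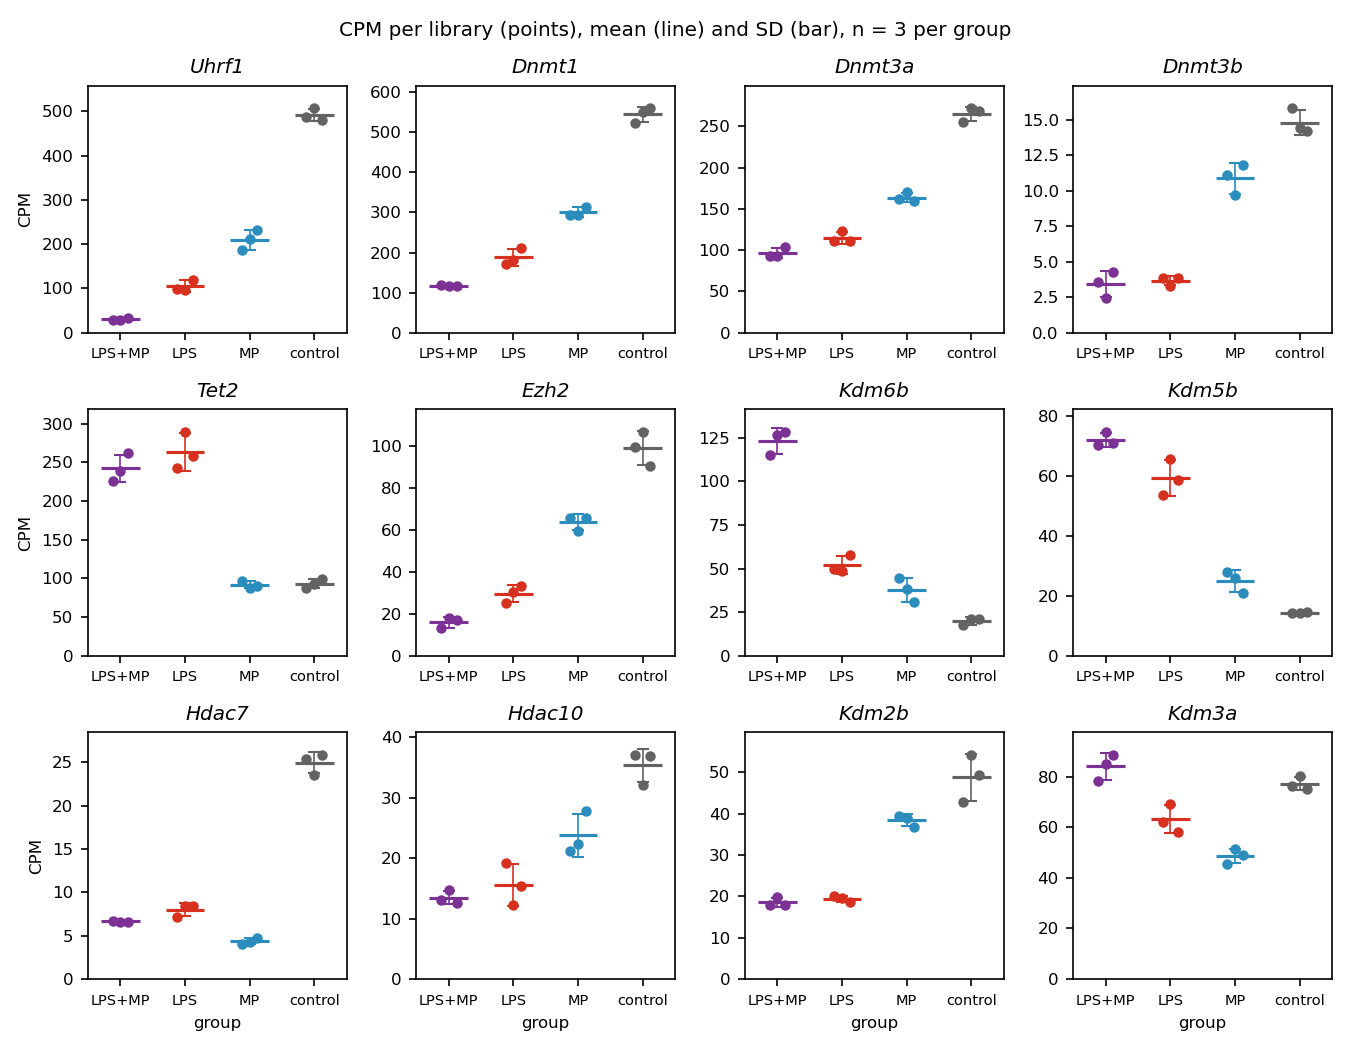
CPM of 12 members by group, with points for the 3 libraries, a line for the mean and a bar for the SD; each vertical axis starts at 0. Uhrf1, Dnmt1, Dnmt3a and Ezh2 step down in the order control, MP, LPS, LPS+MP with no overlap, and Kdm6b and Kdm5b step up. Dnmt3b, Hdac10 and Kdm2b step down by their means, with LPS and LPS+MP libraries overlapping. Tet2 splits the libraries by LPS alone, and Hdac7 is lowest in MP cells (4.04, 4.32 and 4.74 CPM).

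Of 5 H3K4 demethylases 1, Kdm5b, passed both thresholds in any comparison. Kdm5b (chr1:134560171-134632877, plus strand), which removes H3K4 methylation, was at 70.5, 74.9 and 71.1 CPM in LPS+MP cells, 53.8, 65.6 and 58.8 CPM in LPS cells, 28.0, 25.8 and 20.9 CPM in MP cells, and 14.3, 14.5 and 14.6 CPM in control cells. Control libraries differed by less than 1 CPM and all treated libraries were above them. Kdm5b rose in LPS+MP cells (2.24 ± 0.10, adjusted p = 2.67e-11) and in LPS cells (1.96 ± 0.10, adjusted p = 2.21e-10) against control, and in LPS+MP cells against MP cells (1.51 ± 0.10, adjusted p = 5.5e-09). MP cells held 1.66-fold more than control (0.74 ± 0.10, adjusted p = 5.97e-05). Kdm5a was at 149.8, 149 and 153 CPM in LPS+MP cells, 136, 179 and 142 CPM in LPS cells, 116, 111 and 99.8 CPM in MP cells, and 104, 108 and 98.7 CPM in control cells. LPS replicate 2 was its highest library, and the gene was 1.45-fold higher in LPS+MP cells than in control (0.54 ± 0.09, adjusted p = 0.000113). Kdm5c (-0.15 ± 0.06, adjusted p = 0.0493) and the flavin-dependent demethylases Kdm1a (-0.26 ± 0.09, adjusted p = 0.0186) and Kdm1b (-0.53 ± 0.14, adjusted p = 0.00378) were lower in LPS cells than in control, and differed from control by at most 0.53 on the log2 scale in all groups.

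None of the 6 H3K4 methyltransferases (Kmt2a, Kmt2b, Kmt2c, Kmt2d, Setd1a, Setd1b), catalytic subunits of the COMPASS complexes, rose or fell (0 of 6). Kmt2c had the log2 fold change farthest from 0 against control, and was at 25.2, 26.5 and 31.3 CPM in LPS+MP cells, 27.8, 41.5 and 32.1 CPM in LPS cells, 38.8, 41.9 and 36.2 CPM in MP cells, and 43.3, 51.7 and 54.0 CPM in control cells. LPS+MP libraries were below the MP and control libraries, and LPS replicate 2 was above its group, with log2 fold changes against control of -0.82 ± 0.13 (adjusted p = 5.53e-05) in LPS+MP cells and -0.55 ± 0.13 (adjusted p = 0.00199) in LPS cells. Over the other 5 of them, log2 fold changes in LPS+MP cells against control ran between -0.15 (Setd1a) and 0.26 (Kmt2a). Kmt2a was 1.19-fold higher there (0.26 ± 0.07, adjusted p = 0.00444).

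The H3K9 demethylases moved in different directions without passing the fold threshold against control. Kdm3a (chr6:71588974-71632905, minus strand) was at 78.4, 85.1 and 88.6 CPM in LPS+MP cells, 62.2, 69.3 and 58.1 CPM in LPS cells, 45.6, 51.3 and 49.00 CPM in MP cells, and 76.3, 80.3 and 75.2 CPM in control cells. It was 1.58-fold lower in MP than in control cells (-0.66 ± 0.08, adjusted p = 1.73e-05) and 1.33-fold higher in LPS+MP than in LPS cells (0.41 ± 0.08, adjusted p = 0.00128). Both pairs of groups were apart, and LPS+MP and control libraries overlapped. Kdm3b was at 55.9, 58.4 and 56.5 CPM in LPS+MP cells, 65.4, 65.0 and 64.7 CPM in LPS cells, 83.4, 87.1 and 83.2 CPM in MP cells, and 111, 107 and 112 CPM in control cells, and its log2 fold change was -0.94 ± 0.06 (adjusted p = 2.02e-09) in LPS+MP cells. Kdm4a was at 141, 142 and 141 CPM in LPS+MP cells, 133, 98.0 and 125 CPM in LPS cells, 111, 102 and 97.0 CPM in MP cells, and 73.5, 75.4 and 72.3 CPM in control cells, and its log2 fold change was 0.93 ± 0.09 (adjusted p = 3.65e-07) in LPS+MP cells. These 2 genes came close to 2-fold in opposite directions, and Kdm4a passed it under median-ratio scaling. Kdm4b was at 41.2, 42.6 and 44.2 CPM in LPS+MP cells, 48.3, 58.4 and 46.1 CPM in LPS cells, 27.5, 31.3 and 31.9 CPM in MP cells, and 48.3, 55.6 and 50.3 CPM in control cells, lowest in MP cells (-0.75 ± 0.10, adjusted p = 2.83e-05 against control). Kdm4c, the last of the group, differed from control by at most -0.10.

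Of the H3K9 methyltransferases, Setdb1 had group means of 88.7 ± 6.997 CPM in LPS+MP, 110.1 ± 5.50 CPM in LPS, 97.7 ± 9.27 CPM in MP and 110.0 ± 3.59 CPM in control cells (SD, n = 3) and Setdb2 of 14.1 ± 1.84 CPM in LPS+MP, 16.5 ± 2.30 CPM in LPS, 12.2 ± 1.18 CPM in MP and 11.3 ± 1.45 CPM in control cells (SD, n = 3). Setdb1 was 1.24-fold lower in LPS+MP than in LPS cells (-0.31 ± 0.08, adjusted p = 0.00833), and Setdb2 1.42-fold higher in LPS than in control cells (0.51 ± 0.13, adjusted p = 0.00383).

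In the group of H3K36 enzymes, Kdm2b (chr5:122870668-123015080, minus strand), a demethylase that binds unmethylated CpG DNA and is part of a Polycomb complex, was at 18.0, 19.8 and 17.8 CPM in LPS+MP cells, 20.0, 19.5 and 18.7 CPM in LPS cells, 39.4, 39.0 and 36.8 CPM in MP cells, and 42.8, 54.2 and 49.3 CPM in control cells. The 6 libraries with LPS lay below the 6 without. Kdm2b fell in LPS+MP cells (-1.34 ± 0.10, adjusted p = 4.84e-09) and in LPS cells (-1.28 ± 0.10, adjusted p = 1.24e-08) against control. In LPS+MP cells against MP cells it passed at the edge of the threshold (-1.01 ± 0.10, adjusted p = 2.32e-07). That value was -0.82 under quantile normalization, -0.87 under median-ratio scaling, and -0.99 without MP replicate 1, LPS+MP replicate 1 or LPS+MP replicate 3. Kdm8, a JmjC protein assigned to this group by name rather than by an undisputed histone substrate, was near the filter, at 1.56, 1.62 and 0.982 CPM in LPS+MP cells, 2.06, 1.02 and 1.39 CPM in LPS cells, 2.13, 3.81 and 3.13 CPM in MP cells, and 3.69, 4.30 and 4.14 CPM in control cells. It fell in LPS+MP cells (-1.09 ± 0.19, adjusted p = 0.000148) and in LPS cells (-1.04 ± 0.19, adjusted p = 0.000269), but was at -0.90 in LPS cells without LPS replicate 2 and at -0.96 in LPS+MP cells without LPS+MP replicate 3, at -0.98 in LPS cells under median-ratio scaling and at -0.94 in LPS+MP cells under quantile normalization; a filter of 5 CPM removed it. Setd2, which adds the third methyl group to H3K36, and Kdm2a passed no adjusted p in any comparison; Setd2 libraries of LPS+MP cells lay below those of control and MP cells (-0.21 ± 0.12, adjusted p = 0.133 against control). Setd2 was at 143 CPM in LPS replicate 2 and at 97.0 and 100.4 CPM in the other LPS libraries.

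Of the 7 remaining SET domain proteins 4 were higher and 0 lower at the adjusted p alone in each treated group against control. Setd5, Setd6 and Setd7 were among them each time, with Setd8 in LPS+MP and MP cells and Setd4 in LPS cells. Of all genes 27.7% were higher and 38.6% lower in LPS+MP, 26.6% and 35.6% in LPS, and 20.6% and 18.3% in MP cells. In LPS+MP against MP cells 2 of the 7 were higher and 2 lower, where 19% and 36.6% of all genes were. The lower ones were Setd8 (-0.31 ± 0.07, adjusted p = 0.00167) and Setd3 (-0.31 ± 0.08, adjusted p = 0.00364). Setd5 was at 265, 284 and 272 CPM in LPS+MP cells, 254, 277 and 259 CPM in LPS cells, 238, 225 and 223 CPM in MP cells, and 174, 181 and 172 CPM in control cells. Its log2 fold change against control was 0.64 ± 0.06 (adjusted p = 2.15e-07) in LPS+MP cells and 0.38 ± 0.06 (adjusted p = 0.000211) in MP cells. Setd6, which methylates the NF-kappaB subunit RelA, was at 32.0, 35.6 and 35.0 CPM in LPS+MP cells, 24.3, 20.2 and 25.9 CPM in LPS cells, 30.7, 33.7 and 31.3 CPM in MP cells, and 21.2, 15.3 and 19.5 CPM in control cells, and its log2 fold change was 0.85 ± 0.12 (adjusted p = 1.39e-05) in LPS+MP and 0.75 ± 0.12 (adjusted p = 0.000173) in MP cells. The 2 groups with microparticles stood above the other 2 in this gene, and it passed the fold threshold in LPS+MP cells under quantile normalization. Setd8, the H4K20 monomethyltransferase also named Kmt5a, was at 83.8, 79.1 and 83.0 CPM in LPS+MP cells, 69.7, 77.6 and 73.6 CPM in LPS cells, 109, 99.3 and 96.9 CPM in MP cells, and 66.2, 68.8 and 65.95 CPM in control cells. MP libraries were the highest, with 0.59 ± 0.07 (adjusted p = 1.13e-05) against control. Setd7, a lysine methyltransferase of H3K4 and of other proteins, was 1.41-fold higher in LPS+MP cells (0.50 ± 0.06, adjusted p = 5.21e-06). Setd3, an actin histidine methyltransferase, Setd4 and Kmt2e stayed within 0.37 of control in all 3 comparisons.

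No acetyltransferase of the 7 Kat genes passed the fold threshold. Kat2b (PCAF) was at 34.1, 29.1 and 30.1 CPM in LPS+MP cells, 52.0, 46.5 and 50.3 CPM in LPS cells, 36.2, 36.5 and 35.9 CPM in MP cells, and 58.5, 63.0 and 51.9 CPM in control cells. It was 1.83-fold lower in LPS+MP than in control cells (-0.87 ± 0.09, adjusted p = 4.19e-07), 1.57-fold lower in MP than in control cells (-0.66 ± 0.09, adjusted p = 4.43e-05) and 1.58-fold lower in LPS+MP than in LPS cells (-0.66 ± 0.09, adjusted p = 4.47e-05). LPS libraries overlapped control, at 1.16-fold lower (-0.21 ± 0.09, adjusted p = 0.0487). Its paralog Kat2a (GCN5) had group means of 80.9 ± 5.47 CPM in LPS+MP, 94.9 ± 7.21 CPM in LPS, 107 ± 5.12 CPM in MP and 112 ± 4.46 CPM in control cells (SD, n = 3). Kat7 was at 73.8, 81.6 and 77.0 CPM in LPS+MP cells, 76.7, 64.9 and 81.8 CPM in LPS cells, 111, 104 and 98.2 CPM in MP cells, and 110.1, 121 and 113 CPM in control cells, lower in both groups with LPS (-0.56 ± 0.09, adjusted p = 3.63e-05 in LPS+MP and -0.62 ± 0.09, adjusted p = 1.54e-05 in LPS cells). Kat8, which acetylates H4K16, was 1.43-fold higher in LPS than in control cells (0.52 ± 0.14, adjusted p = 0.00377). Kat5, Kat6a and Kat6b stayed within 0.25 of control.

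The class I deacetylases Hdac1, Hdac2 and Hdac3, catalytic subunits of corepressor complexes, and Hdac8 did not pass the fold threshold. Hdac2 was at 58.6, 61.7 and 53.3 CPM in LPS+MP cells, 54.9, 73.4 and 55.7 CPM in LPS cells, 100.22, 91.0 and 95.7 CPM in MP cells, and 88.9, 90.02 and 83.4 CPM in control cells. Libraries with LPS lay below those without, with -0.59 ± 0.10 (adjusted p = 9.4e-05) in LPS+MP and -0.52 ± 0.10 (adjusted p = 0.000366) in LPS cells against control. Hdac1 had group means of 97.9 ± 2.11 CPM in LPS+MP, 115 ± 10.2 CPM in LPS, 97.3 ± 1.69 CPM in MP and 109 ± 8.57 CPM in control cells (SD, n = 3). Hdac3 had group means of 39.2 ± 2.00 CPM in LPS+MP, 35.5 ± 9.01 CPM in LPS, 44.9 ± 3.03 CPM in MP and 53.5 ± 3.07 CPM in control cells (SD, n = 3), and Hdac8 of 5.58 ± 0.507 CPM in LPS+MP, 7.58 ± 1.28 CPM in LPS, 8.47 ± 0.311 CPM in MP and 6.44 ± 0.358 CPM in control cells (SD, n = 3). Per kb Hdac1 was at 48.0 CPM in LPS+MP, 56.3 in LPS, 47.8 in MP and 53.6 in control cells, and Hdac2 at 28.9 CPM in LPS+MP, 30.6 in LPS, 47.7 in MP and 43.6 in control cells.

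The class II deacetylases held the widest change of MP cells against control in the set. Hdac7 (chr15:97792664-97844502, minus strand), a class IIa enzyme, was at 6.75, 6.64 and 6.59 CPM in LPS+MP cells, 7.15, 8.47 and 8.39 CPM in LPS cells, 4.04, 4.32 and 4.74 CPM in MP cells, and 25.4, 23.6 and 25.9 CPM in control cells. All 9 treated libraries were below 9 CPM and apart from the controls, and the MP libraries were below the LPS+MP libraries, which were below the LPS libraries. Hdac7 fell in LPS+MP cells (-1.76 ± 0.11, adjusted p = 1.28e-09), in LPS cells (-1.53 ± 0.11, adjusted p = 1.01e-08) and in MP cells (-2.28 ± 0.11, adjusted p = 1.31e-09) against control. In LPS+MP cells it was 1.43-fold higher than in MP cells (0.52 ± 0.11, adjusted p = 0.00107).

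Hdac10 (chr15:89123307-89128700, minus strand), a polyamine deacetylase, was at 13.1, 14.7 and 12.6 CPM in LPS+MP cells, 19.1, 12.2 and 15.3 CPM in LPS cells, 21.1, 22.3 and 27.8 CPM in MP cells, and 37.1, 32.1 and 36.8 CPM in control cells. It fell in LPS+MP cells (-1.33 ± 0.14, adjusted p = 7.57e-07) and in LPS cells (-1.15 ± 0.14, adjusted p = 4.74e-06), where LPS replicate 2 was the lowest library. Hdac5 was at 52.8, 53.8 and 53.7 CPM in LPS+MP cells, 59.7, 38.2 and 68.1 CPM in LPS cells, 74.1, 73.3 and 71.6 CPM in MP cells, and 100.05, 116 and 103 CPM in control cells. LPS replicate 2 was the lowest here too, and the log2 fold changes of -0.97 ± 0.15 (adjusted p = 2.5e-05) in LPS+MP and -0.97 ± 0.15 (adjusted p = 3.31e-05) in LPS cells stopped just short of 2-fold. That in LPS cells was -0.73 without LPS replicate 2, and passed 2-fold without LPS replicate 1 (-1.04), LPS replicate 3 (-1.13) or control replicate 1 (-1.01). That in LPS+MP cells passed it without control replicate 1 (-1.02). Hdac6, the X-linked tubulin deacetylase, was at group means of 14.9 ± 0.722 CPM in LPS+MP, 19.0 ± 1.14 CPM in LPS, 19.6 ± 1.46 CPM in MP and 23.4 ± 0.832 CPM in control cells (SD, n = 3). Hdac11, the class IV enzyme, was near the filter at group means of 0.757 ± 0.148 CPM in LPS+MP, 1.05 ± 0.223 CPM in LPS, 1.67 ± 0.362 CPM in MP and 2.09 ± 0.160 CPM in control cells (SD, n = 3). Of the 2 rows named Hdac4, the main one spans chr1:91932757-92148393 and had group means of 17.7 ± 1.02 CPM in LPS+MP, 14.2 ± 1.11 CPM in LPS, 25.6 ± 2.33 CPM in MP and 20.6 ± 2.62 CPM in control cells (SD, n = 3). The other spans chr1:91928785-91931176, next to the main row's 3′ end on the same strand, and had group means of 6.30 ± 1.35 CPM in LPS+MP, 5.57 ± 0.256 CPM in LPS, 11.97 ± 0.368 CPM in MP and 11.8 ± 1.03 CPM in control cells (SD, n = 3). In MP cells against control the 2 rows gave 0.30 ± 0.11 (adjusted p = 0.0427) and 0.03 ± 0.14 (adjusted p = 0.908), and how the authors' counting split reads between them is not stated. In LPS cells they gave -0.50 ± 0.11 (adjusted p = 0.00118) and -0.96 ± 0.14 (adjusted p = 1.89e-05). In LPS+MP cells they gave -0.20 ± 0.11 (adjusted p = 0.119) and -0.82 ± 0.14 (adjusted p = 7.06e-05). An Hdac4 row passed 2-fold in LPS cells with a pseudocount of 0.1 and without control replicate 1.

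None of the 7 sirtuins, NAD-dependent deacylases, passed the fold threshold. Sirt1 was at 23.2, 27.8 and 30.0 CPM in LPS+MP cells, 22.5, 29.9 and 22.2 CPM in LPS cells, 33.5, 33.2 and 33.1 CPM in MP cells, and 40.5, 38.9 and 36.2 CPM in control cells. Both groups with LPS lay below control in log2 fold change, LPS+MP cells (-0.50 ± 0.12, adjusted p = 0.00141) and LPS cells (-0.62 ± 0.12, adjusted p = 0.000269). Sirt2 was at 102, 96.2 and 93.8 CPM in LPS+MP cells, 64.7, 67.3 and 73.1 CPM in LPS cells, 77.9, 75.2 and 68.5 CPM in MP cells, and 68.6, 65.4 and 62.7 CPM in control cells, apart from all other groups in LPS+MP cells (0.56 ± 0.08, adjusted p = 8.55e-06 against control and 0.50 ± 0.08, adjusted p = 0.00011 against LPS). Sirt6 was at 25.4, 25.6 and 24.6 CPM in LPS+MP cells, 21.8, 21.6 and 23.8 CPM in LPS cells, 21.1, 19.0 and 20.6 CPM in MP cells, and 18.6, 14.4 and 17.1 CPM in control cells, higher by 0.57 ± 0.10 (adjusted p = 0.00015) in LPS+MP cells. Sirt4 and Sirt7 were higher by 0.39 and 0.30 in LPS+MP cells, and the mitochondrial Sirt3 and Sirt5 passed no threshold. Sirt3 was at 2.41 CPM in LPS replicate 2 and at 5.81 and 5.76 CPM in the other LPS libraries.

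Whether the microparticle effect depended on LPS was tested by the interaction, the log2 fold change of LPS+MP against LPS minus that of MP against control. Of the 66 rows 2 passed both thresholds with a positive value (1.02% of all genes) and 0 with a negative one (3.68% of all genes). Hdac7 had an interaction of 2.05 ± 0.16 (adjusted p = 6.86e-07), from -0.23 with LPS and -2.28 without. Kdm3a had 1.07 ± 0.12 (adjusted p = 1.28e-05), from 0.41 with LPS and -0.66 without, so that its direction differed between the settings. At the adjusted p alone 7 rows were positive (6.45% of all genes) and 5 negative (15.5% of all genes). The 7 became 4 without MP replicate 2, MP replicate 3, LPS+MP replicate 1, LPS+MP replicate 2, control replicate 1 or control replicate 2, and the 5 became 8 without LPS replicate 2. The split was 9 positive and 3 negative under quantile normalization and 8 and 3 under median-ratio scaling. Among the positive were Kdm4b (0.51 ± 0.14, adjusted p = 0.0166) and Dnmt3a (0.45 ± 0.10, adjusted p = 0.00433). Among the negative were Uhrf1 (-0.51 ± 0.13, adjusted p = 0.0132) and Hdac8 (-0.72 ± 0.18, adjusted p = 0.0102), the last at -0.43 (adjusted p = 0.136) under quantile normalization.

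**Figure D3:**
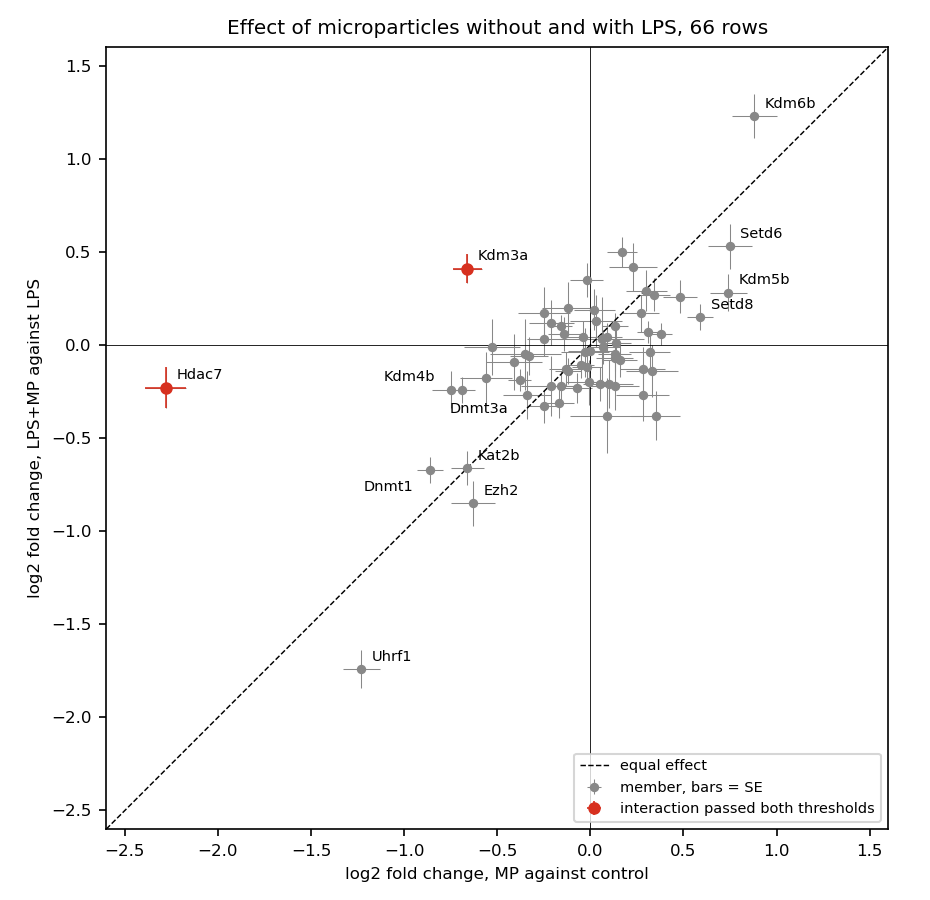
Each of the 66 rows is a point, with its log2 fold change in MP against control on the horizontal axis and in LPS+MP against LPS on the vertical one; bars are SE and the dashed line marks equal effects. Hdac7 and Kdm3a, in red, lie above the line, with interactions of 2.05 and 1.07, and Uhrf1 (-1.23 without and -1.74 with LPS) and Kdm6b (0.88 without and 1.23 with LPS) lie at the ends of the cloud.

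Transcripts of the cell cycle moved with several of these enzymes. A list of 25 cell cycle genes (among them Mki67, Top2a, Pcna and Mcm2 to Mcm7) summed to between 459 and 494 CPM in LPS+MP libraries, 1285 and 1530 in LPS, 3444 and 3630 in MP, and 5895 and 6062 in control libraries. Of the 25, 24 fell in LPS+MP (12.3% of all genes), 22 in LPS (8.05%) and 4 in MP cells (1.85%) against control. In LPS+MP against LPS cells 22 fell (3.89% of all genes), and 0 of the 25 rose in any of these comparisons. Their median log2 fold change against control was -4.06 in LPS+MP, -2.13 in LPS and -0.74 in MP cells. Uhrf1, Dnmt1, Dnmt3a, Ezh2 and Kdm3b had the same order of groups as the sums of this list, with no overlap. This order was held by 5.26% of all genes. By group means it also held in other members, among them Dnmt3b, Hdac10 and Kdm2b, whose LPS+MP and LPS libraries overlapped. Hdac7 did not have it, since Hdac7 was lowest in MP cells. The part of the cell cycle genes' fall in the results on Uhrf1, Dnmt1 and Ezh2 was not tested.

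**Figure D4:**
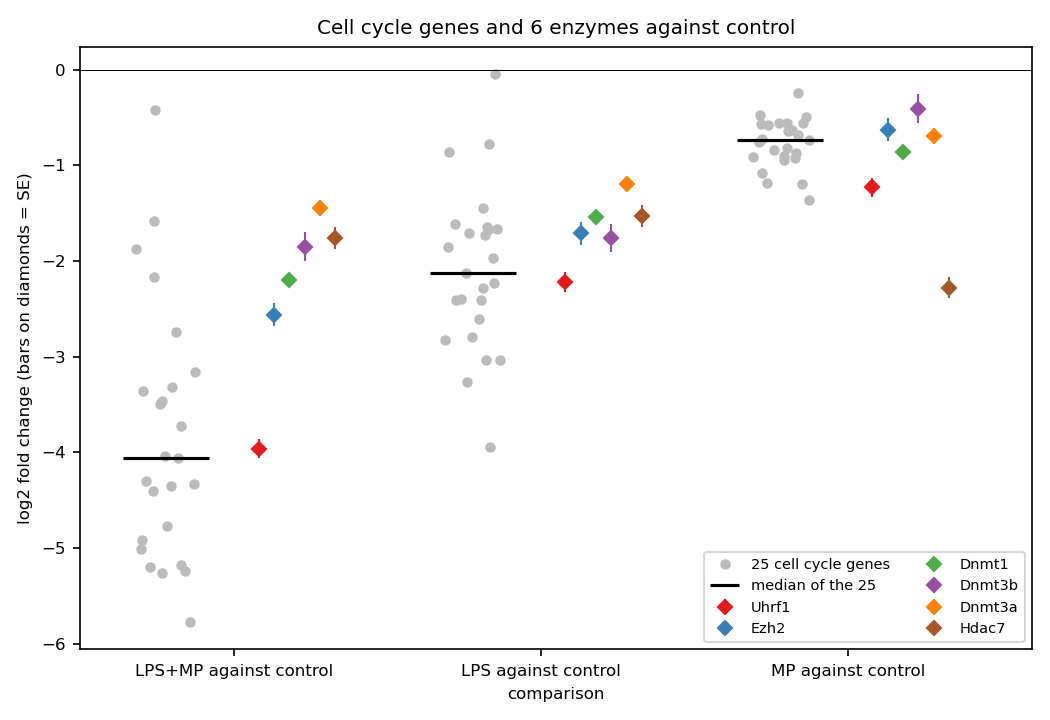
Log2 fold changes against control of 25 cell cycle genes (grey points, black line at their median) and of 6 enzymes (diamonds with SE) in LPS+MP, LPS and MP cells. The medians of the list are -4.06 in LPS+MP, -2.13 in LPS and -0.74 in MP cells; Uhrf1 lies near the median in LPS+MP and LPS cells, while Hdac7 lies below every grey point in MP cells (-2.28).

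Other chromatin genes, from lists written with earlier results known, are given beside the enzymes. In LPS+MP against control, 8.52% of all genes rose and 12.3% fell, and the counts of genes in each list stand beside these shares with no test of the list. Of 25 measured Polycomb subunits outside the set, 5 fell and 0 rose in LPS+MP against control, with a median of 0.03 on the log2 scale. They were Phf19 (log2 fold change -2.77 ± 0.10, adjusted p = 1.44e-12), an accessory subunit of Polycomb repressive complex 2, the chromobox genes Cbx8, Cbx2 and Cbx6, and the histone chaperone Rbbp7. The core subunits Suz12 (-0.72 ± 0.13, adjusted p = 0.000119) and Eed (-0.47 ± 0.10, adjusted p = 0.000574) of the same complex did not pass the fold threshold. Of 11 COMPASS subunits 2 fell (Paxip1, Psip1), and of 29 subunits of class I deacetylase corepressors 1 fell (Mbd3; -1.22 ± 0.11, adjusted p = 6.42e-08). Of 22 other acetyltransferases and coactivators 2 fell, Hat1 (-1.43 ± 0.09, adjusted p = 8.06e-10), which acetylates newly made histone H4, and Msl3.

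Of 21 other lysine methyltransferases 4 rose and 4 fell in LPS+MP against control, beside the same 8.52% and 12.3% of all genes, which also stand beside the counts of methyl-DNA readers and bromodomain genes. Prdm1, a transcriptional repressor of the PR domain family, rose most (3.80 ± 0.13, adjusted p = 5.67e-13), and its mean was 30.6 CPM in LPS+MP, 23.3 in LPS, 2.07 in MP and 1.26 in control cells. Suv39h1, which trimethylates H3K9, fell (-2.47 ± 0.11, adjusted p = 2.4e-11), with means of 6.50 CPM in LPS+MP, 13.3 in LPS, 29.2 in MP and 40.6 in control cells. Dot1l, the H3K79 methyltransferase, rose (1.06 ± 0.09, adjusted p = 4.72e-08), and Whsc1, which dimethylates H3K36, fell (-1.15 ± 0.08, adjusted p = 3.38e-09). Of 18 readers of methylated DNA and repair factors 2 rose and 3 fell: Gadd45b (3.05 ± 0.11, adjusted p = 1.61e-12) and Gadd45a rose, and Neil3 (-4.83 ± 0.16, adjusted p = 4.22e-13), Hells (-2.56 ± 0.14, adjusted p = 2.86e-10), a remodeller needed for DNA methylation, and Mbd4 fell. Of 23 bromodomain genes 3 rose and 2 fell. The nuclear body genes Sp100 (2.35 ± 0.07, adjusted p = 2.68e-13), Sp140 and Sp110 rose, and Atad2 (-2.47 ± 0.11, adjusted p = 1.86e-11) and Trim28 fell.

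Of 20 genes whose enzymes supply or use the cofactors of these reactions, 1 rose and 4 fell in LPS+MP against control, where 8.52% of all genes rose and 12.3% fell. Irg1, the itaconate-producing enzyme, rose (8.87 ± 0.12, adjusted p = 2.26e-17). The isocitrate dehydrogenases Idh1 (-1.38 ± 0.07, adjusted p = 5.87e-11) and Idh2 (-1.51 ± 0.06, adjusted p = 9.36e-12), which make 2-oxoglutarate, the S-adenosylhomocysteine hydrolase Ahcy (-1.55 ± 0.08, adjusted p = 5.16e-11) and the acetyl-CoA synthetase Acss2 (-1.99 ± 0.13, adjusted p = 1.72e-09) fell. In MP cells against control 1 of the 20 rose, again Irg1 (1.11 ± 0.12, adjusted p = 4.22e-06), and 0 fell.

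The 12 rows that passed no adjusted p in any of the 5 pairwise comparisons were Kat6a, Kat6b, Kdm2a, Kdm4c, Kdm6a, Kmt2b, Kmt2e, Setd1a, Setd1b, Setd2, Sirt3 and Sirt5. A p above the threshold does not show that these were equal. Of the 66 rows, 29 stayed within 0.5 on the log2 scale in all 5 comparisons. Neither this count nor that of the 12 rows was made over all genes, so they do not set the enzymes apart from other genes. Counted by libraries that do not overlap, 18 rows were above and 30 below control in LPS+MP cells, where 32.7% and 45% of all genes were. The same counts were 16 and 27 in LPS cells (27.3% and 36.9% of all genes) and 19 and 22 in MP cells (30.9% and 28.1% of all genes).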

How the data were processed

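RNA sequencing values of 12 libraries, 3 in each of 4 groups, were grouped by the sample labels. The libraries were directional and made from polyadenylated RNA, per the labels' protocols. The submitters' processing notes name TopHat2 2.1.1, Trimmomatic 0.36, FastQC 11.5, edgeR, DESeq2 and HTSeq without saying what each did. The genome build is not given in the sources used here. Coordinates are the table's; 4410 of 11655 transcripts matched to GENCODE M21 (GRCm38) had the same span.

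The deposited columns are headed RPKM but were read as CPM because each sums to between 998867 and 999273. The authors' mean column, deposited as logCPM and read as log2, fitted that reading (SD of the difference 0.200 as CPM, 0.988 as RPKM). Depth is therefore unknown, and no counting intervals are given. The strand setting of the counting is not given, so overlapping genes carry that uncertainty. For levels per kb, CPM was divided by the transcript length in GENCODE M21 (65 of 66 rows).

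Values were transformed as log2(CPM + 1), kept for genes with at least 1 CPM in 3 libraries (11745), and fitted with limma 3.58.1 in R 4.3.3, as 4 group means with a variance trend; on this scale the changes of low genes are understated. Adjusted p is the Benjamini-Hochberg value across the genes fitted in a comparison. The call (adjusted p under 0.05, over 2-fold) follows the thresholds of the series description. The design had foreseen RPKM values; the same test was used. Members, role groups, gene lists and tests were chosen with earlier results of these data known. Members past both thresholds in any of 6 comparisons are described by library, with their relatives, and up to 4 genes of each list by smallest adjusted p; Suz12, Eed and Pdgfra, some low-ranked list genes and the members short of the threshold were named after their values were seen. Replicates are biological per the labels, which do not say how cultures were separated. The procedure was tested on simulated data. Alternatives were median-ratio scaling, quantile normalization, a pseudocount of 0.1, a filter of 5 CPM or none, fits with a replicate block, without the trend or with 2 groups alone, no fold threshold, and each library left out.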

Additional observations from a re-analysis of the deposited data

Results flagged for a closer look

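The effect of microparticles differed between cells with and without LPS by over 2-fold in 2 of the 66 rows, by limma's test of the interaction. Both were positive, as in 1.02% of all genes, and 0 were negative, where 3.68% of all genes were. At the adjusted p alone 7 rows had a positive and 5 a negative interaction, where 6.45% and 15.5% of all genes did. For Hdac7 the interaction was 2.05 ± 0.16 on the log2 scale (adjusted p = 6.86e-07): its level was 6.66 ± 0.0833 CPM in LPS+MP and 8.001 ± 0.742 CPM in LPS cells, and 4.37 ± 0.356 CPM in MP and 24.97 ± 1.20 CPM in control cells (SD, n = 3 each). For Kdm3a the interaction was 1.07 ± 0.12 (adjusted p = 1.28e-05), with 84.0 ± 5.19 CPM in LPS+MP and 63.2 ± 5.64 CPM in LPS cells, and 48.6 ± 2.89 CPM in MP and 77.3 ± 2.69 CPM in control cells. Without LPS replicate 2 the interactions were 2.08 for Hdac7 and 1.13 for Kdm3a. With 3 libraries in each group, no test for outlying values of single genes was run; how far LPS replicate 2 deviates across genes is given with the data.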

How the results depend on the processing

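Of 600 recomputed log2 fold changes of 38 values past both thresholds, 591 stayed past them, 9 fell short (all of Kdm8 or Kdm2b, given with those genes) and 0 changed direction. Counts of members past both thresholds were within 1.5 times under every alternative but 2 kinds. With no fold threshold they became 11 higher and 14 lower in MP, 14 and 27 in LPS, and 16 and 25 in LPS+MP cells against control, 9 and 11 in LPS+MP against LPS, 12 and 25 in LPS+MP against MP, and 7 and 5 for the interaction. Leaving out 1 library each gave 0 to 1 members higher in MP against control (1, Kdm6b, without MP replicate 3). No pairing of the libraries by replicate number was detected. Same-numbered residuals correlated with a median of 0.0178 (-0.247 to 0.158 over 18 pairs), and in 3 of 12 libraries the highest correlation was with the same number. With so few libraries per group this cannot exclude a shared day or culture, and the labels do not say what a number marks. With the replicate block the counts past both thresholds were again 0 and 2 in MP, 3 and 9 in LPS and 3 and 9 in LPS+MP cells against control, 1 and 1 in LPS+MP against LPS, 3 and 5 in LPS+MP against MP, and 2 and 0 for the interaction. Over all genes, quantile normalization moved the split of higher and lower calls from 74 and 457 to 129 and 341 in LPS+MP against LPS, and from 120 and 432 to 193 and 306 for the interaction. The median of all genes in LPS+MP against control was -0.10 as deposited, -0.00 under median-ratio scaling and 0.01 under quantile normalization. The depth per library is unknown, so members near 1 CPM, Hdac11 and Kdm8, are the least certain.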
